A study of Mus musculus with 18 samples.

Results

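Messenger RNA of 10 genes used to define inflammatory and universal fibroblasts was followed in mouse pancreas: Il33, Cxcl12, Il6, Clec3b, Dpt, Pi16, Has1, Pdgfra, Pdgfrb and Thy1. They were taken by symbol as 10 of the 25651 genes in the deposited count table. The table covers snap-frozen pancreas of 18 mice aged 20 weeks of mixed descent (129Sv and C57BL/6), with 1 library per mouse. Of these, 5 mice were labelled KPC ASC KO, 7 KPC and 6 wild type (WT). The name KPC is in common use for mice that develop pancreatic tumours, though the labels spell out neither the alleles nor a Cre driver. ASC is the inflammasome adaptor protein encoded by Pycard. The KPC ASC KO mice carry the KPC label as well, and no group with loss of ASC alone was analysed here. Sex, litter, batch, histology and the removed part of Pycard are not among the labels. Whole tissue was measured, so each value mixes all cell types of the organ.

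Fibroblasts make the collagens and proteoglycans of connective tissue. In mouse tissues, fibroblasts that express Dpt, among them a Pi16-positive population, are known as universal fibroblasts. They are found around vessels and elsewhere in connective tissue, and specialised fibroblasts are thought to arise from them. In pancreatic cancer, inflammatory fibroblasts are known for secreting interleukin 6, the chemokine CXCL12 and other signals to immune and tumour cells, in contrast to contractile myofibroblastic ones. PDGF receptors alpha and beta receive growth signals on fibroblasts, and receptor beta is also a classical pericyte marker.

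Library totals ran from 374432 to 647947 counts in KPC ASC KO, from 452472 to 1626977 in KPC and from 294077 to 416879 in WT mice. Pycard lay at 5.56 to 34.2 CPM in KPC ASC KO mice, below all KPC mice (35.1 to 99.5 CPM) and all WT mice (45.45 to 65.5 CPM). Tags from the 3' end may lie outside the removed part and do not measure intact transcript. CPM here means counts per 1000000 counts in the tested genes after TMM scaling, which corrects for a few very abundant transcripts. All 34 acinar enzyme genes together took 35.7% to 62.5% of counts in KPC ASC KO, 4.82% to 43.95% in KPC and 53.3% to 64.85% in WT mice. A set of 15 genes that mark fibroblasts in general and holds none of the 10, such as the collagens Col1a1 and Col3a1 and the proteoglycan Dcn, was present in every mouse. Its summed level was 2469 ± 1498 CPM in KPC ASC KO, 3135 ± 879 CPM in KPC and 1415 ± 163 CPM in WT mice (SD, n = 5, 7 and 6).

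Cxcl12 and Il33 were highest in the same KPC mice, and Pi16 was lowest in them, as described further on. The sequences just before the RefSeq transcription starts of these 3 genes are shown. They are the RefSeq windows of 250 bases before the annotated start on build GRCm38.p6, 5′ to 3′ on the plus strand: chr6:117168285-117168534 for Cxcl12, chr19:29924863-29925112 for Il33 and chr17:29318632-29318881 for Pi16. Capitals mark a short motif on either strand: in the Cxcl12 window GGGCGG, which is the core of the GC box, in the Il33 window the letters TATAAA of the TATA box, and in the Il33 and Pi16 windows the letters CCAAT. A motif of the minus strand reads as its reverse complement here. The Pi16 window lies inside the span that the count table gives for Pi16 (chr17:29317680-29330593), so RefSeq and the count table differ on its start.
Cxcl12: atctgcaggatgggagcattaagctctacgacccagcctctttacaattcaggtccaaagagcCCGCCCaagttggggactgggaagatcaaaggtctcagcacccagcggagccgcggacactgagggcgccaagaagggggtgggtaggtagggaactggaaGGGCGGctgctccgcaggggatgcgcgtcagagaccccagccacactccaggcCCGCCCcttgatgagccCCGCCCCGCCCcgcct
Il33: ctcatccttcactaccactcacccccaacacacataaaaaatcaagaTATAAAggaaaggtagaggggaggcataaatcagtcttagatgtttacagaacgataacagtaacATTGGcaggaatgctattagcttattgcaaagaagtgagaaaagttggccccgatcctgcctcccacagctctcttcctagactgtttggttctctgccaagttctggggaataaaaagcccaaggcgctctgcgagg
Pi16: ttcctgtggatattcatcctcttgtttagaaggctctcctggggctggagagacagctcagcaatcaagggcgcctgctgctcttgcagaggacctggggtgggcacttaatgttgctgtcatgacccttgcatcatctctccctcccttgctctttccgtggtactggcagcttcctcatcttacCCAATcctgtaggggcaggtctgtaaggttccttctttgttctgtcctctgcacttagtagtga
The Cxcl12 window holds 5 matches to GGGCGG, of which the last 2 overlap by 1 base, and none of the other motifs. The Il33 window holds 1 match to TATAAA, which begins 203 bases before the start, and 1 match to CCAAT. The Pi16 window holds 1 match to CCAAT. Windows existed for 7 of the 10 genes, with 2 starts for Il33. The window of the other Il33 start, not shown, holds TATAAA 29 bases before that start. Of all 32851 RefSeq windows of the same length, 32.7% hold the GC box letters, 12.4% those of the TATA box and 33.8% those of the CCAAT box. A match is a description of letters and was not tied to any measured level.

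In KPC pancreas, compared with WT, the surface protein gene Thy1, the universal fibroblast gene Pi16, the alarmin gene Il33, the chemokine gene Cxcl12 and the matrix gene Dpt were higher. Clec3b and Pdgfrb did not pass the test, and Has1, Pdgfra and Il6 had too few counts to be tested. So 5 of the 7 tested genes were called higher and 0 lower in edgeR's quasi-likelihood test (adjusted p under 0.05), against 14.8% of all 6920 tested genes called higher and 29.9% called in either direction. The log2 fold changes of the 7 ran from 0.80 to 1.83, against a median of 0.06 over all tested genes, and Clec3b, Dpt and Pdgfrb turned below 0 under the pan-fibroblast scaling given further on. A gene was tested where at least 5 libraries reached 21.4 counts per 1000000 total counts. For Il33, Clec3b and Pdgfrb no WT library reached that level, against 7, 7 and 6 KPC libraries, so these 3 genes entered through KPC, where they are high, and the count over the 7 is a description. Fitted without that filter, so that all 10 genes entered, the same 5 were called, against 10.3% of all genes in either direction, and Has1, Pdgfra and Il6 were not (edgeR adjusted p = 0.283, 0.732 and 0.789). In bulk tissue, more cells of a type and more RNA per cell cannot be told apart. Macrophage genes, which are no members, moved in the same direction (8 of 9 tested genes higher), and the part of cell composition in these results was not tested. DESeq2 called 5 of the 7 higher, against 15.1% of all tested genes, and limma-voom 1 (Thy1), against 7.02%. A fit with acinar enzyme level added as covariate called 0 of the 7 and 0 of all tested genes. The log2 fold changes in that fit were 1.73 (SE 0.60) for Il33, 1.43 (SE 0.45) for Dpt, 1.39 (SE 0.70) for Pi16, 1.23 (SE 0.39) for Thy1, 1.23 (SE 0.57) for Clec3b, 1.04 (SE 0.76) for Cxcl12 and 0.56 (SE 0.63) for Pdgfrb, so Dpt and Clec3b were larger than without the covariate while the SE of each of the 7 grew.

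**Figure D1:**
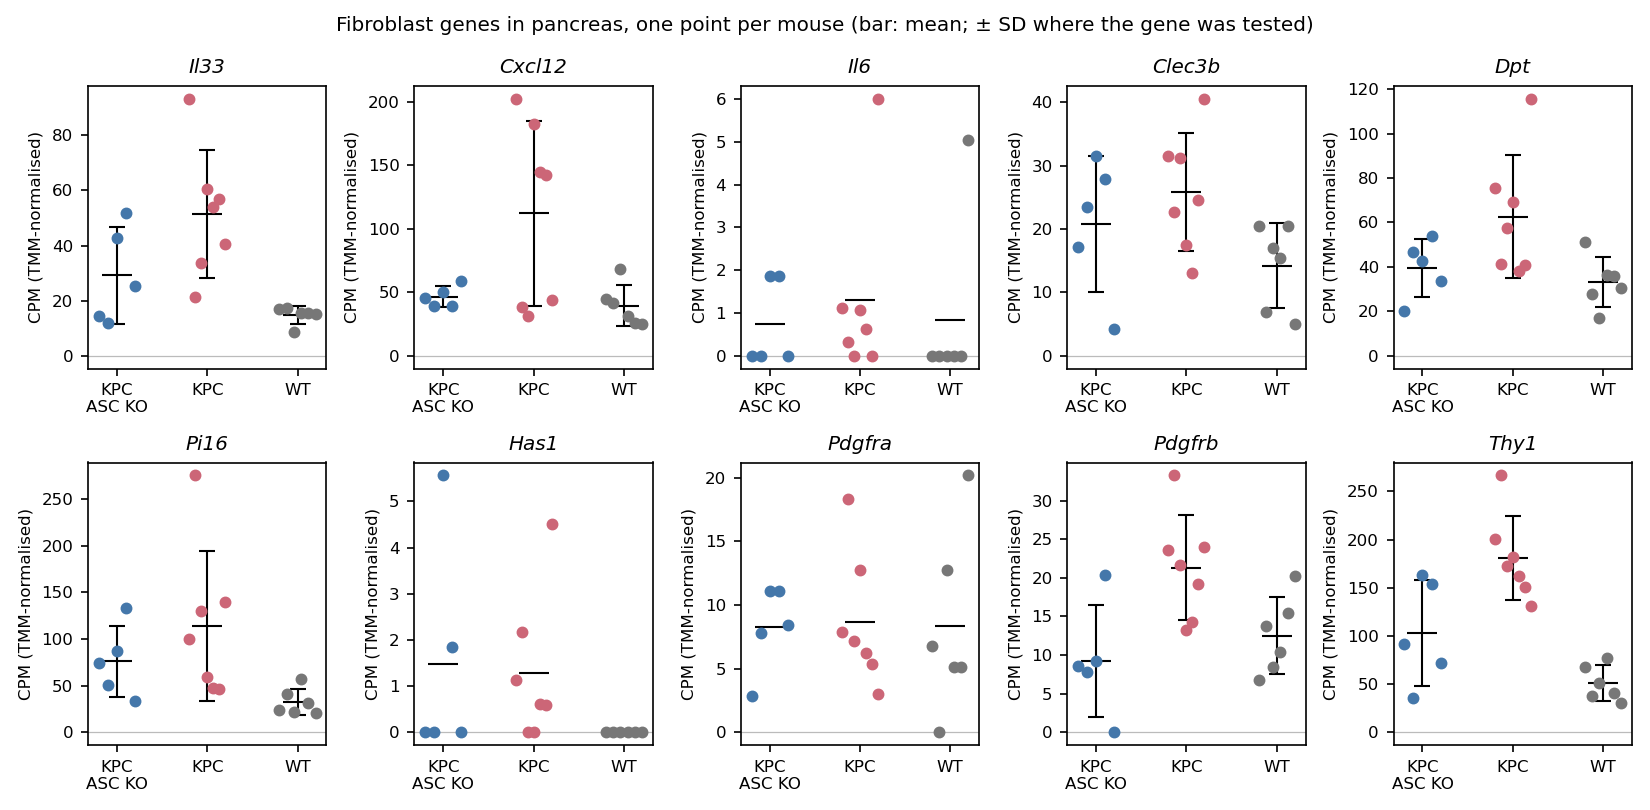
TMM-normalised CPM of each of the 10 genes (vertical axis) in KPC ASC KO (5 mice), KPC (7 mice) and WT (6 mice) pancreas; each point is 1 mouse, the horizontal bar is the mean and the error bars, drawn for the 7 tested genes, are ± 1 SD. All KPC points lie above all WT points for Il33 and Thy1, as for 3.77% of all tested genes. Cxcl12 splits the KPC mice into 4 high and 3 within the WT range.

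Il33 encodes interleukin 33, a nuclear cytokine released from damaged cells that signals through the receptor ST2. It ranged from 21.4 to 93.2 CPM in KPC mice, with a median of 54.05 CPM, against 8.48 to 17.2 CPM in WT mice, with a median of 15.4 CPM. Every KPC mouse lay above every WT mouse, which held for 3.77% of all tested genes. Il33 entered the tested genes only through KPC, where it is high, so this separation is a description. The mean was 51.5 ± 23.1 CPM in KPC mice and 14.8 ± 3.22 CPM in WT mice (SD, n = 7 and 6). The log2 fold change was 1.78 (SE 0.40, edgeR adjusted p = 0.0025). WT libraries held only 2 to 5 Il33 counts each, against 14 to 114 in KPC libraries.

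Cxcl12 encodes the stromal chemokine that binds CXCR4 and retains and attracts lymphocytes. Its level ran from 31.2 to 202 CPM in KPC mice, with a median of 143 CPM, against 25.2 to 67.8 CPM in WT mice, with a median of 36.2 CPM. Only 4 of the 7 KPC mice lay above the WT range, and the other 3 lay within it. The means were 112 ± 72.8 CPM in KPC mice and 39.2 ± 16.1 CPM in WT mice (SD, n = 7 and 6), a log2 fold change of 1.51 (SE 0.44, edgeR adjusted p = 0.0154). Il6 encodes a cytokine that activates STAT3, and it had 9 counts in the 7 KPC libraries together and 1 count in the 6 WT libraries. No direction can be read from so few counts.

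Pi16, peptidase inhibitor 16, marks universal fibroblasts in mouse tissues. KPC mice held 46.1 to 275 CPM, with a median of 99.99 CPM, and WT mice 20.2 to 56.8 CPM, with a median of 27.3 CPM. The groups overlapped: 5 of 7 KPC mice lay above all WT mice, and 2 lay within the WT range. Mean levels were 114 ± 80.8 CPM in KPC mice and 32.4 ± 14.3 CPM in WT mice (SD, n = 7 and 6), and the log2 fold change was 1.82 (SE 0.48, edgeR adjusted p = 0.0086). The coefficient of variation of Pi16 among KPC mice was 70.9%, and 48.1% without mouse 43, against 64.95% and 57.3% for Cxcl12.

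Dpt encodes dermatopontin, a small matrix protein that binds decorin and helps collagen fibrils assemble. It stood at 37.9 to 116 CPM in KPC mice, median 57.6 CPM, and at 17.0 to 51.0 CPM in WT mice, median 33.1 CPM. The ranges overlapped, with 4 of 7 KPC mice above all WT mice. The log2 fold change was 0.88 (SE 0.31, edgeR adjusted p = 0.0362). This call was lost when WT mouse 1197, 1202, 1213, 1237 or 1238, KPC mouse 40 or 210, or KPC ASC KO mouse 335, 377 or 388 was left out (adjusted p = 0.0511 to 0.0974, edgeR).

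Clec3b encodes tetranectin, a secreted C-type lectin that binds plasminogen. Its level was 13.05 to 40.5 CPM in KPC mice, median 24.6 CPM, and 5.05 to 20.5 CPM in WT mice, median 16.2 CPM. The ranges overlapped, and the log2 fold change of 0.80 (SE 0.40, 95% interval -0.02 to 1.62) did not pass (edgeR adjusted p = 0.133). With 1 to 6 Clec3b counts per WT library, a difference of this size was hard to detect.

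Thy1, the surface glycoprotein CD90 of fibroblasts and also of mouse T cells, had the smallest adjusted p of the 7. KPC mice held 131 to 267 CPM, median 173 CPM, and WT mice 30.3 to 77.4 CPM, median 45.95 CPM. All 7 KPC mice lay above all 6 WT mice, which held for 3.77% of all tested genes. Means of 181 ± 44.0 CPM in KPC mice and 50.9 ± 18.4 CPM in WT mice (SD, n = 7 and 6) gave a log2 fold change of 1.83 (SE 0.29, edgeR adjusted p = 0.000159). T cell transcripts (10 genes, none at 0 over a whole group) summed to 27.4 to 411 CPM in KPC and 25.6 to 82.6 CPM in WT mice. In KPC mice 43, 48 and 210 that sum was 27.4, 48.0 and 48.0 CPM, within the WT range, while Thy1 was 267, 173 and 131 CPM there.

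Pdgfrb, which encodes PDGF receptor beta, lay at 13.3 to 33.3 CPM in KPC mice, median 21.6 CPM, and at 6.81 to 20.2 CPM in WT mice, median 12.1 CPM. The ranges overlapped, with 4 of 7 KPC mice above all WT mice, and the log2 fold change of 0.80 (SE 0.41) did not pass (edgeR adjusted p = 0.146). Pericyte transcripts (9 genes, 2 of them tested) summed to 94.7 to 171 CPM in KPC and 51.7 to 109 CPM in WT mice, and their part in the Pdgfrb values was not tested. Pdgfra, which encodes PDGF receptor alpha, averaged 8.68 ± 5.20 CPM in KPC mice and 8.34 ± 7.10 CPM in WT mice (SD, n = 7 and 6), with 0 to 4 counts per WT library. Fitted without the filter on low counts, Pdgfra differed by a log2 value of 0.36 (edgeR adjusted p = 0.732). Has1, a hyaluronan synthase, had 13 counts in the KPC libraries together and 0 in the WT libraries. The limit that 0 counts allow in the pooled WT libraries, 2.13 CPM by 3 counts, lies above the pooled KPC level of 1.26 CPM, so a difference was not detectable at this depth. That limit covers counting error only.

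Loss of ASC on the KPC background asks whether the inflammasome adaptor bears on these genes. In KPC ASC KO pancreas the 7 tested genes had lower group estimates than in KPC pancreas, with log2 fold changes from -1.30 for Cxcl12 to -0.16 for Clec3b (0.12 under the pan-fibroblast scaling), but none passed the test. The median over all tested genes was -0.05. By edgeR, 0 of 7 were called in this comparison, against 9.42% of all tested genes called and 2.69% called lower. At an unadjusted p under 0.05 there were 4 of 7, against 26.4% of all tested genes. Il33 and Pdgfrb are among these 4. Il33, Clec3b and Pdgfrb reached the filter level in only 2, 2 and 1 KPC ASC KO libraries. They entered through KPC, the higher group here too, so the count and the shared direction of the 7 are a description. DESeq2 called 1 of the 7, Cxcl12 (log2 -1.30, adjusted p = 0.0398), against 3.92% of all tested genes called lower.

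In KPC ASC KO mice 318, 335, 377, 384 and 388, Cxcl12 stood at 45.6, 39.1, 50.1, 38.95 and 59.1 CPM. All 5 lay within the WT range and within the range of the KPC mice, whose 3 lowest overlapped them. The log2 fold change against KPC was -1.30 (SE 0.44, edgeR adjusted p = 0.0682). It passed without KPC mouse 43 (-1.49, adjusted p = 0.0185), 48 (-1.44, adjusted p = 0.0176) or 210 (-1.45, adjusted p = 0.0297), which are the 3 KPC mice lowest in Cxcl12.

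Thy1 in the same 5 mice, in that order, stood at 91.2, 35.2, 163, 154 and 71.8 CPM. Mice 318, 335 and 388 lay below all 7 KPC mice, while mice 377 and 384 lay inside the KPC range. Il33 in the same order of mice was 14.2, 11.7, 42.7, 51.9 and 25.3 CPM, with 377 and 384 again the highest. The fold changes against KPC were -0.77 (SE 0.27, edgeR adjusted p = 0.0745) for Thy1 and -0.72 (SE 0.35, edgeR adjusted p = 0.186) for Il33 on the log2 scale. Thy1 passed without KPC mouse 210 (-0.84, adjusted p = 0.0484) or KPC ASC KO mouse 377 (-0.97, adjusted p = 0.0374) or 384 (-0.94, adjusted p = 0.0429, all edgeR). Over all single mice left out, its edgeR adjusted p ran up to 0.212.

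Pdgfrb had 0 counts in KPC ASC KO mouse 388 and stood at 8.55, 7.81, 9.28 and 20.4 CPM in mice 318, 335, 377 and 384. Of these mice, 4 of 5 lay below all KPC mice. The log2 fold change was -1.02 (SE 0.40, edgeR adjusted p = 0.106). It passed when mouse 384 was left out (-1.57, adjusted p = 0.0343). Over all single mice left out, its edgeR adjusted p ran up to 0.236. The KPC ASC KO libraries held 0 to 11 Pdgfrb counts each. Dpt averaged 39.4 ± 13.1 CPM in KPC ASC KO and 62.5 ± 27.6 CPM in KPC mice, Pi16 75.9 ± 38.3 and 114 ± 80.8 CPM, and Clec3b 20.8 ± 10.7 and 25.9 ± 9.31 CPM (SD, n = 5 and 7). Their log2 fold changes of -0.62 (SE 0.30), -0.53 (SE 0.43) and -0.16 (SE 0.35) did not pass (edgeR adjusted p = 0.197, 0.453 and 0.821). Has1 had 4 counts in KPC ASC KO and 13 in the deeper KPC libraries, a pooled level of 2.08 CPM in KPC ASC KO and 1.26 CPM in KPC. Il6 had 2 and 9 counts, a pooled level of 1.04 CPM in KPC ASC KO and 0.87 CPM in KPC, and no direction can be read from so few counts. Pdgfra averaged 8.27 ± 3.39 CPM in KPC ASC KO and 8.68 ± 5.20 CPM in KPC mice.

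Fibroblast transcripts as a whole were highest in KPC ASC KO mice 377 and 384, as were Thy1, Il33, Pi16, Clec3b and Pdgfrb, but not Cxcl12 or Dpt. The 15-gene pan-fibroblast sum was 4234 CPM in mouse 377 and 3978 CPM in mouse 384, within the span of the KPC mice or just above it (2073 to 4039 CPM). It was 1422, 1336 and 1372 CPM in mice 318, 335 and 388, within the WT span of 1142 to 1605 CPM. Acinar enzymes took 41.95% and 35.7% of counts in mice 377 and 384, and 62.5%, 59.2% and 58.5% in mice 318, 335 and 388. Macrophage genes summed to 3167 and 3064 CPM in mice 377 and 384, and to 1145, 906.4 and 941.5 CPM in mice 318, 335 and 388. Whether stromal content or acinar loss accounts for the spread of these genes among the KPC ASC KO mice was not tested.

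Set against WT, none of the genes passed in KPC ASC KO mice. The KPC ASC KO means of the tested genes other than Pdgfrb lay between those of KPC and WT, which does not describe each mouse. Il33 lay in the WT range in mouse 318 (14.2 CPM) and mouse 335 (11.7 CPM) and in the KPC range in the other 3. The log2 fold changes were 1.29 (SE 0.53) for Pi16, 1.06 (SE 0.46) for Il33, 1.06 (SE 0.32) for Thy1, 0.64 (SE 0.46) for Clec3b, 0.27 (SE 0.36) for Dpt, 0.21 (SE 0.52) for Cxcl12 and -0.22 (SE 0.53) for Pdgfrb. Pdgfrb turned to 0.091 under total count scaling, and Cxcl12, Clec3b and Dpt turned to -0.30, -0.18 and -0.40 under the pan-fibroblast scaling. In edgeR 0 of 7 were called, and so were 0 of all 6920 tested genes (0% called), of which 691 (9.99%) had an unadjusted p under 0.05. Pycard itself was not called here (log2 -1.67, SE 0.38, edgeR adjusted p = 0.14), so 0 calls do not show that KPC ASC KO pancreas was like WT. DESeq2 called 8 genes, none of them among the 7. The smallest adjusted p of the 7 in edgeR was 0.259, for Thy1, for which 3 of 5 KPC ASC KO mice lay above all WT mice. The 3 comparisons share mice (each group enters 2 of them), so their values stand side by side and are not independent.

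**Figure D2:**
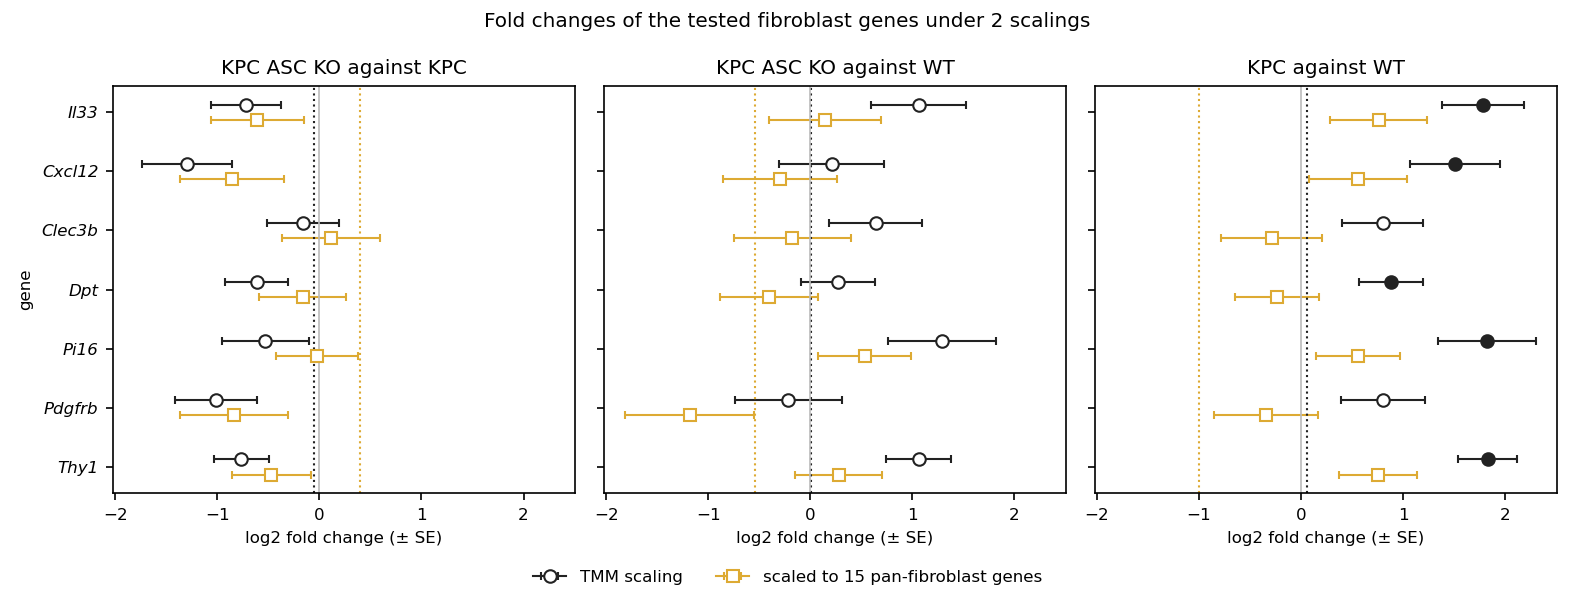
Log2 fold change ± SE (horizontal axis) of the 7 tested genes (rows) in the 3 comparisons, with TMM scaling (black circles) and after scaling each library to its 15 pan-fibroblast genes (yellow squares, chosen after seeing the data). Filled symbols passed at an adjusted p under 0.05 and dotted lines mark the median of all tested genes under each scaling; the only filled symbols are the 5 for KPC against WT with TMM scaling.

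The KPC mice did not form 1 uniform group for these genes. Cxcl12 was 202, 182, 145 and 143 CPM in KPC mice 40, 89, 145 and 154. It was 37.9, 31.2 and 43.5 CPM in mice 43, 48 and 210, close to the WT mean of 39.2 CPM. B cell transcripts (10 genes, none at 0 over a whole group) summed to 662, 1060, 1207 and 1187 CPM in mice 40, 89, 145 and 154. In mice 43, 48 and 210 they summed to 34.8, 93.6 and 126 CPM, below the lowest WT mouse at 144.5 CPM.

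Of the 5 tested genes of lymphoid tissue stroma, Cxcl13, Ccl19, Ccl21a and Enpp2 were also higher in each of mice 40, 89, 145 and 154 than in mice 43, 48 and 210, and Clu was not. Clu, which encodes clusterin and is made by many cell types, ran the other way, at 3430, 2137, 2538 and 2103 CPM in the first 4 mice and 5516, 5853 and 4972 CPM in the other 3. The sum over the 10 genes of that list, most of it Clu, ran with it, from 3273 to 4458 CPM in the first 4 mice and from 5236 to 6129 CPM in the other 3. Cxcl13, the chemokine that draws B cells into follicles, was 109, 158, 155 and 153 CPM in mice 40, 89, 145 and 154 and 8.08, 24.0 and 19.5 CPM in mice 43, 48 and 210, against a WT mean of 38.1 CPM. Ccl19, a ligand of the lymphocyte homing receptor CCR7, was 152, 161, 156 and 131 CPM in the first 4 mice and 4.97, 24.0 and 30.02 CPM in the other 3. Its counts and those of Ccl21a are uncertain because the mouse genome carries near-identical copies of these genes. Whether lymphoid tissue in the sampled piece accounts for the Cxcl12 values was not tested.

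Pi16 ran the other way. It was 275, 130 and 140 CPM in KPC mice 43, 48 and 210, and 99.99, 59.5, 47.2 and 46.1 CPM in mice 40, 89, 145 and 154. The 4 lowest KPC mice for Pi16 were the 4 highest for Cxcl12. Il33 was highest in mouse 40 (93.2 CPM), followed by 60.6, 56.9 and 54.05 CPM in mice 89, 154 and 145, and it was 40.5, 33.6 and 21.4 CPM in mice 210, 48 and 43. Even the lowest of these exceeded every WT mouse. Thy1 did not follow the split, with its highest value in mouse 43 (267 CPM) and its lowest in mouse 210 (131 CPM).

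With B cell transcripts added as covariate in the fit of all 18 mice, the log2 fold change of Cxcl12 for KPC against WT was 0.58 (SE 0.27) and did not pass (edgeR adjusted p = 0.117), while Il33 (1.28, adjusted p = 0.0127), Dpt (0.92, adjusted p = 0.0415), Thy1 (1.89, adjusted p = 0.000168) and Pi16 (2.13, adjusted p = 6.94e-05) did. Of all 6920 tested genes, 1727 were called in that fit, 813 of them higher. The mean B cell sum itself differed, at 624 CPM in KPC and 170 CPM in WT mice. The fit cannot fully tell B cell level from group, and the part of B cells in these values was not tested.

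**Figure D3:**
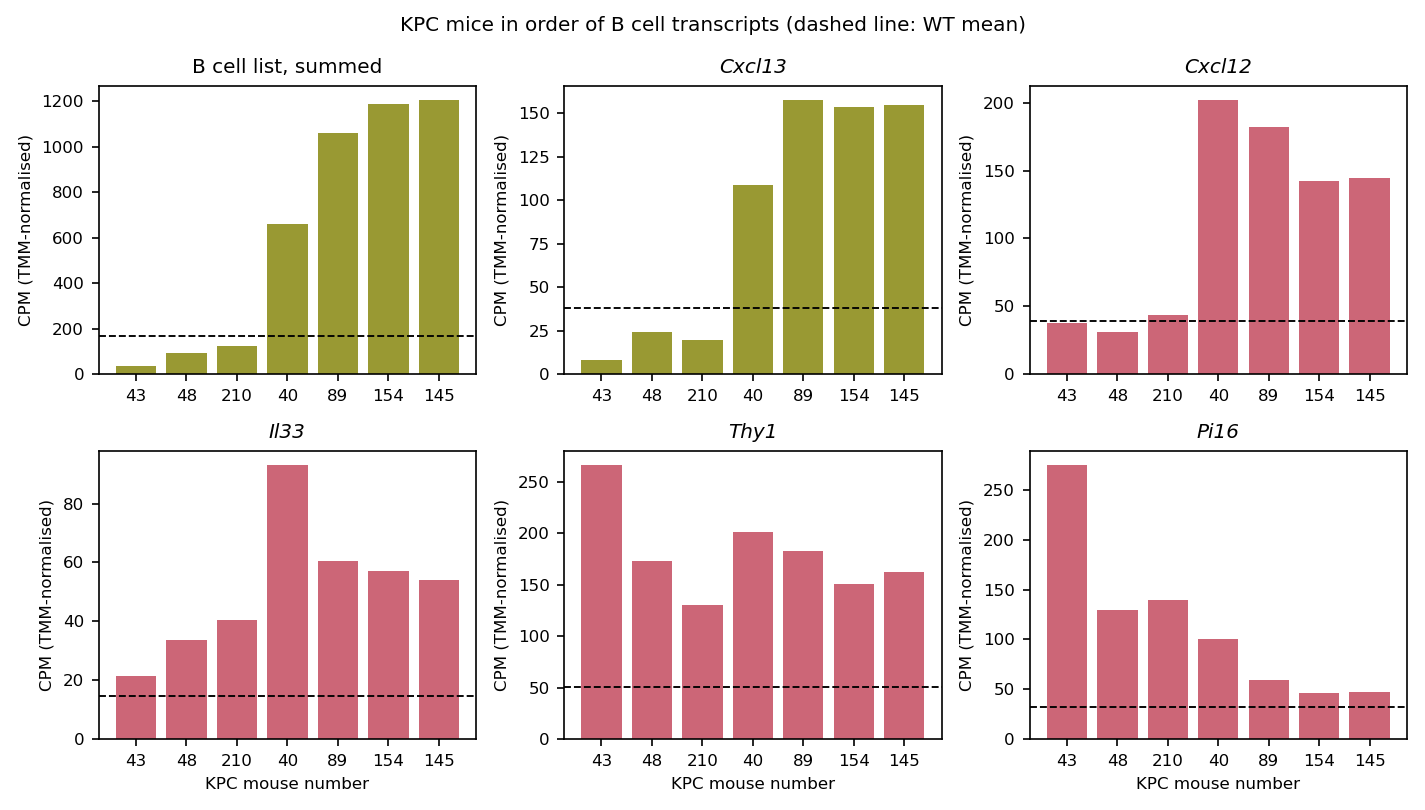
TMM-normalised CPM (vertical axis) in the 7 KPC mice, 1 bar per mouse, placed from the lowest to the highest summed B cell level; panels show that sum, Cxcl13, Cxcl12, Il33, Thy1 and Pi16, and the dashed line is the WT mean. Cxcl12 and Cxcl13 are high in mice 40, 89, 154 and 145, Pi16 is lowest in mice 89, 154 and 145, and Thy1 exceeds the WT mean in all 7 mice.

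Fibroblast transcripts in general were higher in KPC pancreas as well. Of the 14 tested pan-fibroblast genes, 10 were higher in KPC than in WT and 0 were lower, against 14.8% of all tested genes called higher. The median log2 fold change of the 14 was 1.12. Col1a1 was at 415 CPM in KPC and 149 CPM in WT (log2 1.48, edgeR adjusted p = 0.00949), and Dcn at 539 and 293 CPM (0.88, adjusted p = 0.00138). When every library was instead scaled to its pan-fibroblast sum, a choice made after seeing the data, 0 of the 7 genes were called for KPC against WT. Their log2 fold changes then ran from -0.34 to 0.76, against a median of -0.997 over all tested genes, of which 0.477% were called higher and 50% lower. Relative to that median all 7 lay higher, and Clec3b (-0.29), Dpt (-0.24) and Pdgfrb (-0.34) had turned below 0. Per 1000 pan-fibroblast counts, Thy1 had 60.7 ± 16.3 counts in KPC and 35.8 ± 11.4 in WT mice, and Il33 18.1 ± 9.24 in KPC and 10.7 ± 3.17 in WT mice (SD, n = 7 and 6). Clec3b had 8.30 ± 2.20 in KPC and 9.90 ± 4.42 in WT mice on that scale, and Dpt 20.1 ± 6.49 and 23.6 ± 8.52.

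The opposite extreme, scaling by total counts alone, called all 7 genes higher in KPC than in WT (log2 2.07 to 3.19), where the median of all tested genes was 1.41 and 79.6% of them were called higher. In the same way all 7 were called lower in KPC ASC KO than in KPC (-2.44 to -1.16), where the median of all genes was -1.15 and 73% were called lower. Over all tested genes, KPC against WT gave 1023 higher and 1047 lower calls with TMM, 5508 and 176 with total counts and 33 and 3457 with the pan-fibroblast scaling. KPC ASC KO against KPC gave 186 lower among 652 calls with TMM, 142 higher and 5051 lower with total counts and 1022 higher and 44 lower with the pan-fibroblast scaling.

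Other genes of the same fibroblast states moved in part. Among 12 other tested universal fibroblast genes, 6 were higher in KPC than in WT and 0 were lower (median log2 0.87), where 14.8% of all tested genes were called higher. They included Anxa3, an annexin (0.98, SE 0.22, edgeR adjusted p = 0.00238), Cd55, a complement regulator (1.88, SE 0.49, adjusted p = 0.00639), and Col14a1, a fibril-associated collagen (1.37, SE 0.37, adjusted p = 0.0087). Of 9 other tested inflammatory fibroblast genes, 4 were higher and 1 lower (median log2 0.55). The complement genes C3 (1.54, SE 0.23, adjusted p = 8.05e-05) and Serping1 (1.36, SE 0.29, adjusted p = 0.00189) were higher, and Svep1, a large adhesion protein, was higher too (1.57, SE 0.44, adjusted p = 0.00986). Igf1, a growth factor, was lower in KPC than in WT (-1.21, SE 0.20, adjusted p = 0.000175) and higher in KPC ASC KO than in KPC (1.10, SE 0.20, adjusted p = 0.00433). The cytokines Cxcl1, Cxcl2, Ccl2, Ccl7, Lif, Saa3 and Il11 of that list had too few counts to test. Of 11 tested myofibroblastic genes, 4 were higher (median log2 0.54), all of them matrix or matricellular genes: Postn (1.80, adjusted p = 0.00196), Col12a1 (2.60, adjusted p = 0.0065), Ccn2 (1.81, adjusted p = 0.0186) and Tnc (1.37, adjusted p = 0.0204). The contractile genes Acta2 (0.54, adjusted p = 0.52) and Tagln (-0.37, adjusted p = 0.568) did not pass. In KPC ASC KO against KPC, 0 of the 12 universal, 1 of the 9 inflammatory (Igf1) and 0 of the 11 myofibroblastic genes were called.

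Markers of neighbouring cell types were compared in the same fit of KPC against WT. Of the 7 tested endothelial genes 1 was higher, Pecam1 (log2 1.23, edgeR adjusted p = 0.0175), and of 2 tested pericyte genes 1, Rgs5 (1.03, adjusted p = 0.0325). For the endothelial list that share is close to the 14.8% of all tested genes called higher. None of 3 tested mesothelial genes was called, among them Slpi (1.04, adjusted p = 0.198). Of 5 tested lymphoid stroma genes 1 was higher, Ccl21a (1.22, adjusted p = 0.0296), and of 7 tested B cell genes 1, Cd22 (2.53, adjusted p = 0.026). The B cell share is likewise close to that 14.8%, and 1 call among 5 or 2 tested genes does not set the lymphoid stroma or pericyte list apart from it. These lists have medians of 0.52, 0.79, 0.14, 1.22 and 1.97 on the log2 scale, and their tested genes are fewer than their members because of the filter on low counts. Single genes among them, such as Krt19 and Slpi, are also made by duct cells, and mesothelial Msln and Wt1 were too low to test.

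Signalling partners of these genes were compared next. For interleukin 33, the receptor gene Il1rl1 had 3 counts in KPC ASC KO, 48 in KPC and 4 in WT libraries together, below the filter. The adaptor Myd88 was higher in KPC than in WT (log2 1.51, SE 0.44, edgeR adjusted p = 0.0119), and the kinase Irak1 was lower (-0.87, SE 0.20, adjusted p = 0.00231) and again higher in KPC ASC KO than in KPC (0.95, SE 0.20, adjusted p = 0.00684). For CXCL12, the receptor gene Cxcr4 was below the filter as well, with 4 counts in KPC ASC KO, 86 in KPC and 3 in WT libraries, and the scavenging receptor Ackr3 did not pass in KPC against WT (0.42, adjusted p = 0.631). For interleukin 6, 3 of 6 tested pathway genes were higher in KPC than in WT: the shared receptor subunit Il6st (0.59, SE 0.20, adjusted p = 0.027), the transcription factor Stat3 (0.98, SE 0.26, adjusted p = 0.00645) and its feedback inhibitor Socs3 (1.17, SE 0.40, adjusted p = 0.0285). None of the 6 was called in KPC ASC KO against KPC.

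Among PDGF ligands, Pdgfa was lower in KPC than in WT (log2 -0.67, SE 0.21, edgeR adjusted p = 0.0176) and higher in KPC ASC KO than in KPC (0.86, SE 0.21, adjusted p = 0.0141), while Pdgfb did not pass in either. Around hyaluronan, the hyaluronidase Hyal2 (1.30, SE 0.46, adjusted p = 0.0346) and the receptors Cd44 (1.62, SE 0.33, adjusted p = 0.00108) and Lyve1 (1.57, SE 0.34, adjusted p = 0.00195) were higher in KPC than in WT. Lyve1, which lymphatic vessels and some macrophages also express, was lower in KPC ASC KO than in KPC (-1.01, SE 0.32, adjusted p = 0.0479). Next to ASC itself, the interleukin 1 receptor Il1r1, which fibroblasts express, was higher in KPC than in WT (2.18, SE 0.52, adjusted p = 0.00354), with means of 11.2 CPM in KPC ASC KO, 20.1 CPM in KPC and 4.43 CPM in WT mice. Il1r1 did not pass in KPC ASC KO against KPC (-0.675, SE 0.384, edgeR adjusted p = 0.267). Gsdmd, which encodes the pore-forming protein gasdermin D (1.04, SE 0.36, adjusted p = 0.0324), as well as the kinase gene Nek7, whose product takes part in NLRP3 inflammasome assembly (0.73, SE 0.27, adjusted p = 0.0441), were higher in KPC than in WT, and neither was called in KPC ASC KO against KPC (edgeR).

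Variation around the group means, over the 18 mice, gave each tested gene its nearest genes by Pearson correlation of log2 CPM, as a description in libraries that share depth and composition. Pi16 was nearest to Ano1 (r = 0.94), a chloride channel, Mgp (0.91), the matrix Gla protein, and Serinc2 (0.87). Cxcl12 was nearest to the MHC gene H2-Q7 (0.89), whose family members are near-identical, Ccr7 (0.88) and the B cell gene Ms4a1 (0.88). Il33 was nearest to Laptm5 (0.88), Wdr1 (0.86) and Coro1a (0.85), of which Laptm5 and Coro1a are leukocyte genes. Thy1 was nearest to Rnpep (0.83), Plat (0.82) and Csf2ra (0.80), Clec3b to Rere, Plscr3 and Fbn1 (0.84, 0.84 and 0.80), Pdgfrb to Id2, Dusp23 and Pdxk (0.86, 0.82 and 0.80) and Dpt to Thap7, Fkbp10 and S100a10 (0.72, 0.70 and 0.70). Without the 2 mice farthest from the median of the gene, the r of Pi16 with Ano1 was 0.93, that of Cxcl12 with H2-Q7 0.84, that of Il33 with Laptm5 0.84, that of Pdgfrb with Id2 0.60 and that of Dpt with Thap7 0.53. Among the 21 pairs of the 7 genes, r lay above 0 in 16 and below 0 in 5, from -0.62 for Cxcl12 with Pi16 to 0.63 for Pdgfrb with Pi16, with a median of 0.18.

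**Figure D4:**
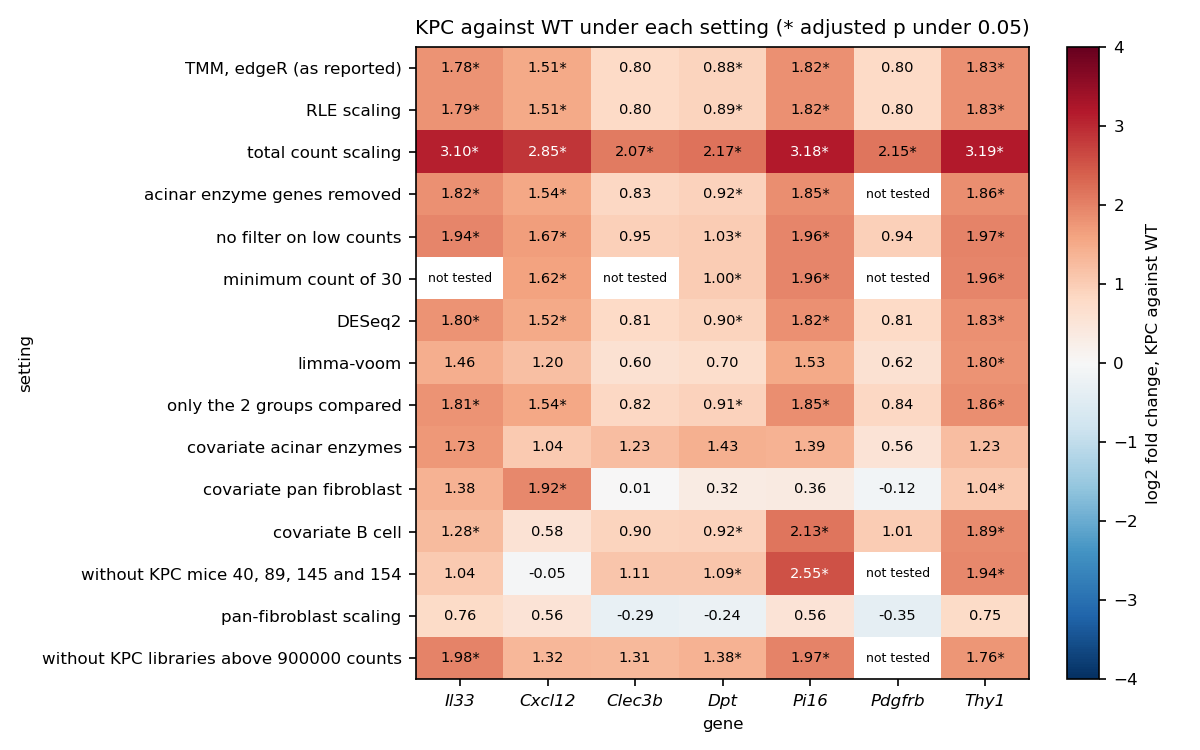
Log2 fold change of the 7 tested genes (columns) for KPC against WT under the reported setting and 14 alternatives (rows); colour gives the value from blue (lower in KPC) to red (higher in KPC) and a star marks an adjusted p under 0.05. Thy1 keeps its star in all rows except the acinar covariate and the pan-fibroblast scaling, whereas Clec3b and Pdgfrb have one only with total count scaling.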

How the data were processed

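Per the labels' protocols, poly(A) priming added a sample index (8 bp) and a molecular identifier (UMI, 10 bp) to each transcript of total RNA. The deposited table holds whole-number UMI counts per gene, not normalised. Per the submitters' processing notes, the authors used edgeR 3.36.0, limma 3.50.0 and R 4.1.2, with builds GRCm38 and mm10. Not given in the sources used here are the aligner, strand setting, UMI collapsing rule and annotation release.

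Groups came from the genotype labels. The counts were tested here with edgeR 4.0.16 in R 4.3.3: filterByExpr (minimum count 10), TMM scaling and the quasi-likelihood F test with robust estimation, fitted to all 18 mice in 3 groups. P-values were adjusted by Benjamini-Hochberg over the 6920 tested genes and called at 0.05. CPM is per 1000000 counts in those genes after TMM. Error is the SD between mice or the SE of the log2 fold change, and intervals are at 95%. Alternatives used DESeq2 1.42.0 and limma 3.58.1, other scalings, filters and covariates, and fits without single mice. The fit was tested on simulated data. Low counts, as in WT libraries, limit precision. No 2 libraries of a group agreed within sampling noise (chi-square per degree of freedom at least 2.35). Nothing was paired, as no mouse number recurs.

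The 10 genes, the comparison lists and the 4 KPC mice left out together were chosen with earlier results of these data known. All 10 genes are named, and from each list up to 4 genes with the smallest p for KPC against WT, partner genes called in any comparison, and the 3 genes nearest to each tested gene. Promoter windows are from RefSeq.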

Additional observations from a re-analysis of the deposited data

Results flagged for a closer look

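The 10 genes were examined in the 3 groups for a single mouse that stands far from the others of its group, except Has1 in WT, which is 0 in each mouse. That made 29 groups of values, and chance marks about 1 in 20 where values are continuous. For genes with a few counts, such as Il6, that rate does not hold, as a single count among zeros is always marked. Il33 was 8.48 CPM in WT mouse 1202, against 15.2 CPM in the next lowest WT mouse, a gap between 2 and 3 counts. Pi16 was 275 CPM in KPC mouse 43, against 140 CPM in the next highest KPC mouse, and that library is the deepest, with 886 Pi16 counts. Il6 was 6.00 CPM in KPC mouse 210, from 4 counts, against 1.12 CPM in the next highest KPC mouse. Il6 was 5.05 CPM in WT mouse 1238, from 1 count, and 0 in the other 5 WT mice.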

How the results depend on the processing

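No paired analysis was possible because the mouse numbers are not shared between the groups. For KPC against WT, the 5 of 7 fibroblast genes called became 1 in limma-voom, 0 with the acinar enzyme covariate, 2 with the pan-fibroblast covariate (Cxcl12 and Thy1), 3 without KPC mice 40, 89, 145 and 154 and 0 with the pan-fibroblast scaling. The 2070 genes called became 5684 with total count scaling, 1136 at a minimum count of 30, 0 with the acinar covariate, 730 with the pan-fibroblast covariate, 752 without those 4 mice, 3490 with the pan-fibroblast scaling and 653 without KPC mice 43, 89, 145 and 154. That last setting leaves out the libraries above 900000 counts and, like the pan-fibroblast scaling, was chosen after seeing the data. Signs turned for Pdgfrb with the pan-fibroblast covariate (-0.12) and scaling (-0.34), for Clec3b (-0.29) and Dpt (-0.24) with that scaling, and for Cxcl12 without the 4 mice (-0.051). Leaving out single mice gave 4 to 5 of the fibroblast genes and 1706 to 2325 genes.

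For KPC ASC KO against KPC, the 0 of 7 called became 7 with total count scaling, 1 without the filter (Thy1), 2 at a minimum count of 30 (Cxcl12 and Thy1) and 1 in DESeq2. Leaving out single mice gave 0 to 2, with calls without KPC mouse 43, 48 or 210 or KPC ASC KO mouse 377 or 384. The 652 genes called became 5193 with total count scaling, 192 with only the 2 groups, 0 with the acinar covariate, 268 with the pan-fibroblast and 260 with the B cell covariate, 1 without the 4 mice, 1066 with the pan-fibroblast scaling and 0 without the deepest 4 libraries. Without single mice it ran from 157 (without KPC ASC KO mouse 335) to 1068 (without KPC mouse 48). It left 1.5 times the reported value also without KPC mouse 89, 145 or 154 (325, 335 and 334) and KPC ASC KO mouse 318 or 388 (191 and 205). Signs turned for Clec3b in limma-voom (0.016), with the pan-fibroblast covariate (0.065) and scaling (0.12) and without KPC ASC KO mouse 388 (-0.35 to 0.05 over single mice), for Pi16 with that covariate (0.088), and for Il33 (0.046) and Cxcl12 (0.28) without the 4 mice.

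For KPC ASC KO against WT, 0 of the 7 were called under every alternative run. The 0 genes called became 1 with total count scaling, 12 without the filter, 5 at a minimum count of 30, 8 in DESeq2, 8 with only the 2 groups, 3 with the acinar, 1 with the pan-fibroblast and 9 with the B cell covariate, 4 without the 4 mice, 5 with the pan-fibroblast scaling, 4 without the deepest 4 libraries and 0 to 3 without single mice. Signs turned for Pdgfrb with total counts (0.091), for Dpt with the pan-fibroblast covariate (-0.10) and, with that scaling, for Cxcl12 (-0.30), Clec3b (-0.18) and Dpt (-0.40). The cause of these shifts was not tested. KPC mice 40, 89, 145 and 154 are the 4 highest for Cxcl12 and Il33 and the 4 lowest for Pi16, so shifts of these genes without them follow from that choice. The mean acinar, pan-fibroblast and B cell levels themselves differ between the groups, so fits with them as covariates cannot tell them from the group, and calls can be lost through a larger SE as well as a smaller difference. Depth limits Il6, Has1 and Pdgfra, which have 0 to 4 counts in each WT library.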
